A study of Mus musculus with 8 samples.

Results

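Genes for RNA-binding and splicing proteins were followed through the developing brain of mice with reciprocal chromosome duplications. The set holds every probe set whose only gene symbol in the platform annotation begins with Srsf, Hnrn, Sf3a, Sf3b, Rbm, Celf, Elavl, Nova, Rbfox, Ptbp, Mbnl, Prpf, Ddx, Dhx, Snrnp, Cpeb, Tnrc6, Cnot or Pum. It took in 100 of 9607 genes, read by 168 of 14661 probe sets with 1 gene symbol, out of 22511 probe sets in all. The rule uses names and no measured value, though it was written with earlier results of these data known. It also took in 2 opposite strand transcripts, Rbm46os and Rbm3os.

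RNA-binding proteins decide which exons of a primary transcript are joined, how long the messenger RNA lasts and when it is translated. Small nuclear ribonucleoproteins (snRNPs) and the U2-bound Sf3 proteins form the spliceosome, whose rearrangements are driven by RNA helicases, while SR proteins and hnRNPs bind exons and introns and favour or hinder their use. In the brain, members of the Rbfox, Nova, Celf, Elavl, Ptbp and Mbnl families set splicing programmes that change as neurons mature.

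All mice were heterozygous for the T9H reciprocal translocation of chromosomes 7 and 15 (T9H/+). In paternal-7 mice proximal chromosome 7 was duplicated from the father and proximal chromosome 15 from the mother, and in maternal-7 mice the parents were exchanged. Both copies of a stretch then come from 1 parent, and no mouse without the translocation was measured. RNA came from the cortex and the cerebellum of neonates and from whole embryonic brain at 15.5 or 13.5 days post coitum (dpc), and was hybridised to 1 Affymetrix 430B array per duplication and context, which gave 8 arrays. Without replicates inside a context, the error of each comparison is the departure of the arrays from an additive model of context and duplication, and whether animals were pooled or shared between tissues is not given in the labels.

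Array medians lay between 230 and 286 signal units. The paternal-7 embryonic arrays had the highest of them, at 278 at 15.5 dpc and 286 at 13.5 dpc. Signals of the members correlated across probe sets at 0.971 between the arrays of the cortex pair and 0.976 between those of the cerebellum pair. The embryonic pairs had 0.924 (15.5 dpc) and 0.943 (13.5 dpc). Of 5 cortex markers on the array, 3 were called higher in cortex than in cerebellum (Neurod2, Bcl11b, Slc17a7), and of 4 tested cerebellar markers, 1 (Tfap2b) was called lower in cortex and 1 lay above 0 without a call. Markers of microglia and of red blood cells were not among the annotated probe sets. In whole tissue, fewer cells of a type cannot be told apart from less RNA per cell.

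Testing required a signal above the array's own median on 2 or more arrays. This held for 130 of the 168 members (77.4%), with 86 genes, and for 58.7% of all probe sets. Of the 38 members not tested, 26 lay below the median on every array, and 98 members lay above it on all 8. By family, 23 of 27 neural regulators, 7 of 9 hnRNP, 3 of 5 SR protein, 6 of 8 U2 core, 11 of 16 snRNP, 39 of 51 Rbm, 26 of 34 helicase and 15 of 18 translation and deadenylation probe sets were tested. The 14 genes without any tested probe set included Srsf1, Hnrnpc, Hnrnpl, Pum2 and Rbm5, whose levels were therefore not compared. Differences are on the log2(signal + 58.5) scale with the moderated standard error, and "called" means a limma p below 0.05 after Benjamini-Hochberg adjustment over all 13221 tested probe sets.

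The clearest changes of the set separated the neonatal from the embryonic brain, and the rises lay mostly in the neural splicing regulators. In this family, 11 of 23 tested probe sets rose and 4 fell in neonatal tissue, led by the rise of Rbfox1, Rbfox3, Celf5 and Celf6 and by the fall of Mbnl3. All neonatal arrays were dissected cortex or cerebellum and all embryonic arrays were whole brain, so stage and dissection cannot be told apart. Over the whole set, 16 probe sets of 10 genes were called higher (12.3%), beside 14.3% of all tested probe sets, and 16 probe sets of 15 genes were called lower (12.3%), beside 16.4%. The members therefore held called changes at a share near that of the array as a whole. Their median difference was -0.15, and that of all tested probe sets was -0.16. Embryonic arrays had higher medians, and centring every array on its median moved the median of all probe sets to 0.02 and that of the members to 0.02, with 20 members then called higher and 10 lower. Of the neural regulators, 11 were then called higher and 2 lower, and under quantile normalization 8 higher and 5 lower.

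**Figure D1:**
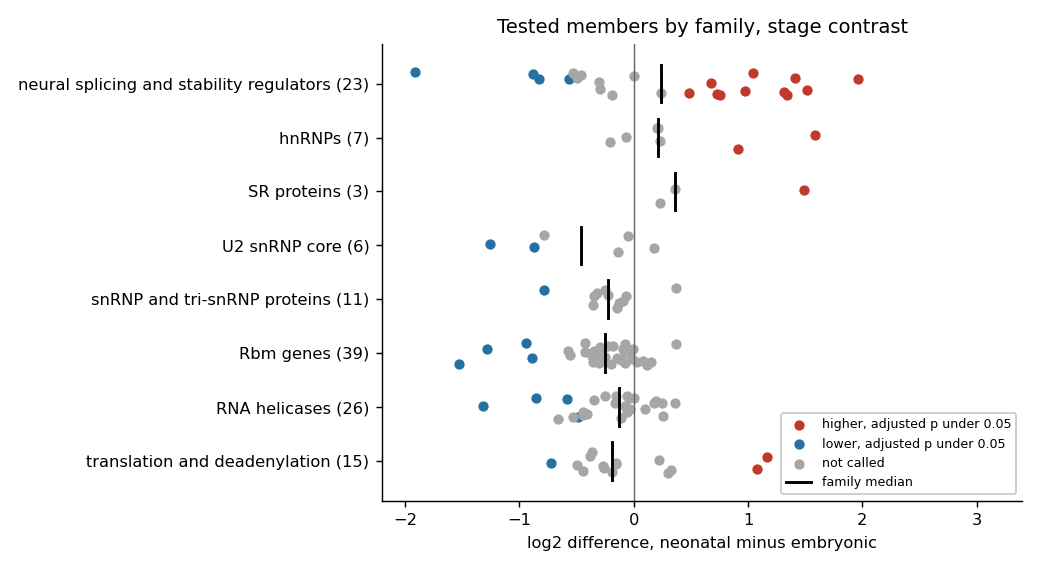
Log2 difference between neonatal and embryonic arrays for the 130 tested members, by family with the number of tested probe sets in brackets. Each point is 1 probe set, coloured by its call in the limma fit, and black bars are family medians. Most of the called rises lie in the neural regulators (11 of 16), while the Rbm genes and RNA helicases hold called falls only, though 1 rise was called in each of these families with median centring or quantile normalization. Among all tested probe sets, 14.3% were called higher and 16.4% lower.

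Rbfox1, which binds UGCAUG next to alternative exons and is restricted to neurons, heart and muscle, had the largest rise. Its probe set 1438217_at had signals of 2458 in paternal-7 and 2347 in maternal-7 cortex and of 2372 in paternal-7 and 1998 in maternal-7 cerebellum. The embryonic signals of this probe set were 1020 in paternal-7 and 914 in maternal-7 brain at 15.5 dpc, and 238 in paternal-7 and 362 in maternal-7 brain at 13.5 dpc. All 4 neonatal arrays stood above all 4 embryonic ones, and the difference was 1.96 ± 0.17 (adjusted p = 0.000927). The other tested probe sets of Rbfox1 rose as well, by 1.52 ± 0.13 (1455358_at, adjusted p = 0.00103) and 1.34 ± 0.14 (1447735_x_at, adjusted p = 0.00163).

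Rbfox3, whose protein is the neuronal nuclear antigen NeuN, had signals of 12095 in paternal-7 and 8958 in maternal-7 cortex, and of 8422 in paternal-7 and 8869 in maternal-7 cerebellum (1436450_at). Its embryonic signals were 5888 in paternal-7 and 5075 in maternal-7 brain at 15.5 dpc, and 2296 in paternal-7 and 2934 in maternal-7 brain at 13.5 dpc. The lowest neonatal array was thus above the highest embryonic one. The difference was 1.32 ± 0.17 (adjusted p = 0.00263), and the second probe set (1456149_at) rose by 0.68 ± 0.17 with arrays that overlapped (adjusted p = 0.0237).

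The Celf proteins bind GU-rich elements in introns and 3′ untranslated regions and act on splicing, stability and translation. Celf6 had 1547 in paternal-7 and 1509 in maternal-7 cortex and 1774 in paternal-7 and 1457 in maternal-7 cerebellum, against 978 in paternal-7 and 1023 in maternal-7 brain at 15.5 dpc and 526 in paternal-7 and 534 in maternal-7 brain at 13.5 dpc. It rose by 1.04 ± 0.13 (adjusted p = 0.00266), without overlap between stages. Celf5 rose by 0.97 ± 0.17 (adjusted p = 0.00704), between 10229 and 14441 on the neonatal arrays and between 3206 and 9909 on the embryonic ones.

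Celf2 gave a different answer with each of its tested probe sets. Probe set 1439777_at was called higher in neonatal tissue by 1.41 ± 0.28 (adjusted p = 0.0116), although its cerebellar signals of 751 in paternal-7 and 876 in maternal-7 mice lay below both signals at 15.5 dpc. Probe set 1444152_at was called lower (-0.83 ± 0.21, adjusted p = 0.0262), with signals between 79.8 and 178 on neonatal and between 196 and 306 on embryonic arrays. The neonatal signals of 1444152_at were all below the array median, and its bound was a level at least 1.11-fold lower. Both calls were lost on leaving out single arrays, in 2 of 8 fits for the first probe set and in 6 of 8 for the second.

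Nova2, an antigen of paraneoplastic disease that binds YCAY clusters, rose by 0.73 ± 0.18 (adjusted p = 0.0233), with signals between 3276 and 4922 on the neonatal and between 1809 and 3473 on the embryonic arrays, which overlapped. Elavl1, the broadly expressed member of the Elavl family of AU-rich element binders, rose by 0.76 ± 0.13 (1452858_at, adjusted p = 0.00758) and by 0.49 ± 0.14 (1445521_at, adjusted p = 0.0398), and its other tested probe set (1440464_at) had -0.49 and was not called. The 7 other probe sets of the family without a call, of Celf3, Ptbp1, Mbnl1 and Mbnl2, had differences between -0.53 and 0.24.

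Muscleblind proteins bind YGCY motifs and promote adult patterns of splicing. Mbnl3, the muscleblind gene linked to proliferating cells, had the largest fall of the set. Its probe set 1434678_at had 96.5 in paternal-7 and 215 in maternal-7 cortex and 160 in paternal-7 and 168 in maternal-7 cerebellum, against 308 in paternal-7 and 374 in maternal-7 brain at 15.5 dpc and 1346 in paternal-7 and 1820 in maternal-7 brain at 13.5 dpc. The neonatal signals were below the array median on all 4 arrays, so the level was at least 3.13-fold lower there, with a fitted difference of -1.91 ± 0.16 (adjusted p = 0.000939). A second probe set of Mbnl3 (1442549_at) fell (-0.88 ± 0.14, adjusted p = 0.00588). Mbnl2 fell (1433754_at, -0.57 ± 0.13, adjusted p = 0.0171), with overlapping arrays, and its 4 other tested probe sets were not called.

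**Figure D2:**
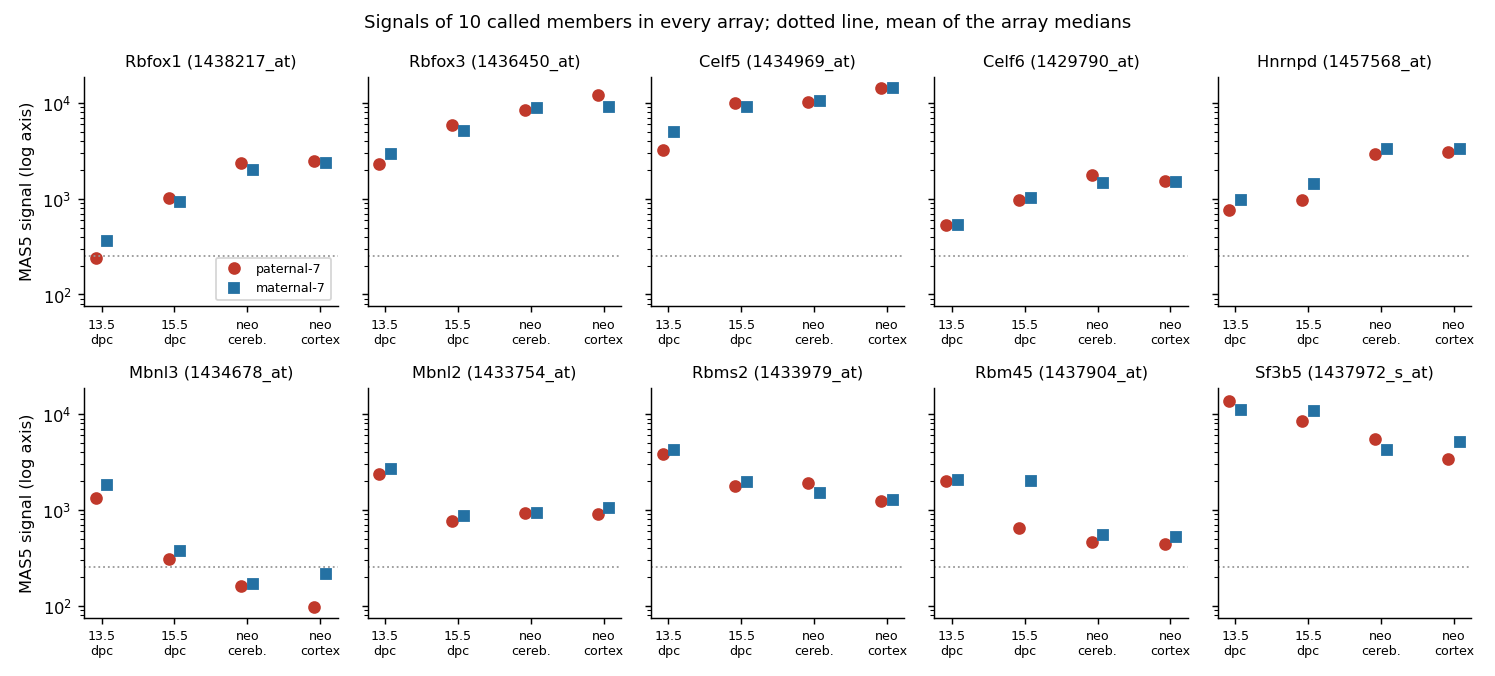
MAS5 signal on a log axis for 1 probe set of each of 10 called members, on every array. Circles are paternal-7 and squares maternal-7 arrays, in the order 13.5 dpc, 15.5 dpc, neonatal cerebellum and neonatal cortex, and the dotted line is the mean of the array medians. Upper panels show members higher in neonatal tissue, such as Rbfox1 with 1998 to 2458 against 238 to 1020 in embryos, and lower panels show members lower there, such as Mbnl3 with 96.5 to 215 against 308 to 1820.

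Of 7 tested hnRNP probe sets, 2 rose, both of Hnrnpd, and none fell, beside 14.3% and 16.4% of all tested probe sets. Hnrnpd, also known as AUF1, which binds AU-rich elements and speeds the decay of their messages, had 3058 in paternal-7 and 3288 in maternal-7 cortex and 2924 in paternal-7 and 3267 in maternal-7 cerebellum. Its embryonic signals were 979 in paternal-7 and 1423 in maternal-7 brain at 15.5 dpc, and 755 in paternal-7 and 963 in maternal-7 brain at 13.5 dpc. The neonatal arrays lay within a narrow range well above all embryonic ones, with a difference of 1.58 ± 0.14 (1457568_at, adjusted p = 0.000964), and probe set 1458273_at was called higher (adjusted p = 0.00423). The embryonic signals of 1458273_at lay between 105 and 153, all below the array medians, so it was tested only through the neonatal arrays and its bound was a level at least 1.10-fold higher.

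Srsf12, an SR-like protein, was the 1 member called of 3 SR protein probe sets tested (2 with median centring). Its signals were 1118 in paternal-7 and 1203 in maternal-7 cortex and 1957 in paternal-7 and 1728 in maternal-7 cerebellum, against 617 in paternal-7 and 590 in maternal-7 brain at 15.5 dpc and 287 in paternal-7 and 511 in maternal-7 brain at 13.5 dpc. It rose by 1.49 ± 0.18 without overlap (adjusted p = 0.00229). Its cerebellar signals stood above its cortical ones in both duplications, a contrast that was not called (-0.64 ± 0.25, adjusted p = 0.623).

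In the U2 snRNP core, which recognises the branch point, 2 of 6 tested probe sets fell and none was called higher. The shares of all tested probe sets were 16.4% lower and 14.3% higher. Sf3b5, a small subunit of SF3b, had 3377 in paternal-7 and 5143 in maternal-7 cortex and 5569 in paternal-7 and 4268 in maternal-7 cerebellum, against 8526 in paternal-7 and 10832 in maternal-7 brain at 15.5 dpc and 13740 in paternal-7 and 11013 in maternal-7 brain at 13.5 dpc. All neonatal arrays were lower (-1.26 ± 0.20, adjusted p = 0.0057). Sf3b3, a scaffold of the same complex, fell (-0.87 ± 0.16, adjusted p = 0.00908), with 231 to 331 on neonatal and 517 to 637 on embryonic arrays. Of the 11 snRNP and tri-snRNP probe sets, only Snrnp35, a protein of the minor U11/U12 spliceosome, was called (-0.79 ± 0.18, adjusted p = 0.0188), whereas median centring left 0 called lower and 1 higher.

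Of 39 tested Rbm probe sets, 4 fell and none was called higher, beside 16.4% and 14.3% of all tested probe sets. With median centring, 3 fell and 1 was called higher. Rbm45, a protein of developing neurons found in inclusions of motor neuron disease, had 438 in paternal-7 and 529 in maternal-7 cortex and 468 in paternal-7 and 555 in maternal-7 cerebellum, against 655 in paternal-7 and 2022 in maternal-7 brain at 15.5 dpc and 2003 in paternal-7 and 2046 in maternal-7 brain at 13.5 dpc. It fell (-1.52 ± 0.26, adjusted p = 0.00708), and the paternal-7 array at 15.5 dpc stood between the stages. The others were Rbm33 (1453566_at, -1.28 ± 0.33, adjusted p = 0.0272), Rbm3os (adjusted p = 0.0313) and Rbms2 (-0.89 ± 0.14, adjusted p = 0.00574), each with arrays that overlapped between stages, and these 3 were named after their values were seen. Of the 3 tested probe sets of Rbm33, only 1 was called, and the highest had -0.08. The called one had 1026 and 985 in paternal-7 brain at 15.5 and 13.5 dpc. In maternal-7 brain it had only 302 and 193, against 130 to 304 on neonatal arrays. The neonatal signals of Rbm3os, between 45.8 and 203, were all below the array medians, so its level was at least 1.22-fold lower. Leaving out single arrays ended the call of Rbm33 in 5 of 8 fits and that of Rbm3os in 6 of 8, and the call of Rbm3os was also lost under quantile normalization and median centring.

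Of 26 helicase probe sets, 4 fell and none was called higher, beside 16.4% and 14.3% of all tested probe sets. With median centring, 2 fell and 1 was called higher. Ddx58, the cytoplasmic sensor RIG-I, had neonatal signals between 97.2 and 185, below the array medians, and embryonic signals between 371 and 512 (1446457_at). The level read by this probe set was at least 1.90-fold lower (-1.32 ± 0.18, adjusted p = 0.00362). The other tested probe set of Ddx58 (1436562_at), above the array medians on all 8 arrays, had -0.44 and was not called. Ddx11, a DNA helicase of sister chromatid cohesion that shares the family name, had 503 to 539 in neonatal tissue against 666 to 1364 in embryos (-0.85 ± 0.14, adjusted p = 0.006). Dhx35 (-0.58 ± 0.13, adjusted p = 0.0186) and Ddx31, of ribosome assembly (-0.48 ± 0.14, adjusted p = 0.0397), had smaller falls. The other tested probe set of Ddx31 had -0.34 and was not called. Median differences were -0.25 for the Rbm genes and -0.13 for the helicases, beside -0.16 for all probe sets, and the helicase median became 0.05 when arrays were centred on their medians.

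Translation and deadenylation factors went both ways. Cpeb2, which binds the cytoplasmic polyadenylation element and controls translation, had 1796 in paternal-7 and 1954 in maternal-7 cortex and 2443 in paternal-7 and 2300 in maternal-7 cerebellum, against 1266 in paternal-7 and 988 in maternal-7 brain at 15.5 dpc and 680 in paternal-7 and 791 in maternal-7 brain at 13.5 dpc. It rose by 1.17 ± 0.15 (1458518_at, adjusted p = 0.00258) without overlap, and its probe set 1443017_at rose by 1.08 ± 0.16 (adjusted p = 0.00435), at least 1.99-fold. The embryonic signals of 1443017_at lay between 172 and 265, all below the array medians, so it was tested only through the neonatal arrays. Cnot11, a subunit of the CCR4-NOT deadenylase, fell (1428533_at, -0.72 ± 0.13, adjusted p = 0.00729), with 1017 to 1236 on neonatal and 1279 to 3056 on embryonic arrays. Only 1 of its 3 tested probe sets was called, and the highest had 0.22.

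In 8 members, all arrays of one stage lay below the array median, so that they were tested only through the other stage, and 6 of these were called. Of the 122 members above the median in both stages, 26 were called. On leaving out each array in turn, between 20 and 31 members were called, with the lowest number without the paternal-7 cortex array, and 18 of the 28 calls named by rule held in all 8 fits. The exceptions were Celf2 (both probe sets), Nova2, Mbnl2, Sf3b3, Snrnp35, Dhx35, Ddx31, Elavl1 (1445521_at) and Rbfox3 (1456149_at). Signals of the neuronal marker list (3 of its 9 genes on the array) summed to 36780 in paternal-7 and 34099 in maternal-7 cortex and to 31794 and 33962 in paternal-7 and maternal-7 cerebellum. They summed to 21227 in paternal-7 and 23349 in maternal-7 brain at 15.5 dpc and to 7786 and 12515 in paternal-7 and maternal-7 brain at 13.5 dpc. Both of its tested genes, Map2 and Syt1, were called higher in neonatal tissue, and both tested astrocyte markers were too (Aqp4 and Slc1a2). Of the 3 tested progenitor markers, Rfx4 (0.81) and Slc1a3 (1.15), also found in astrocytes, were called higher and Top2a, a topoisomerase of dividing cells, lower (-0.71). The part of cell makeup in the changes of the members was not tested.

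Promoters are shown for 5 members called between stages that have a single entry in the RefSeq table of build GRCm38.p6, which spans 250 bases before to 50 after each gene's start. They let the genes that rose (Rbfox3, Srsf12, Hnrnpd) be set beside Mbnl3, which fell, and Mbnl2, for which 1 of 5 tested probe sets was called lower. Capitals mark the GC box GGGCGG and the box CCAAT, searched on both strands, and all other bases are in lower case.
Rbfox3 (chr11:118760992-118761291, minus strand): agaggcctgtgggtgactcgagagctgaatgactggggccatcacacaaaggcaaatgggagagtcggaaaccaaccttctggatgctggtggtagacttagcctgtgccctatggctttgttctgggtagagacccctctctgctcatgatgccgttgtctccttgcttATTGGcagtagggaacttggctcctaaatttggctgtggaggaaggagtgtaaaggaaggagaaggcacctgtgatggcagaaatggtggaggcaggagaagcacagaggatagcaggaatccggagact
Srsf12 (chr4:33209022-33209321, plus strand): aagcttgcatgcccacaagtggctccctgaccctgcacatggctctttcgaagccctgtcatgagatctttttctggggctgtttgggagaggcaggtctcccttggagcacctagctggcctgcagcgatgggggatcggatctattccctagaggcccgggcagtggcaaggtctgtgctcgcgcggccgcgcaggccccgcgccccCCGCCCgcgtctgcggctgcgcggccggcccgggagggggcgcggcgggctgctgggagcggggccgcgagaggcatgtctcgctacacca
Hnrnpd (chr5:99978889-99979188, minus strand): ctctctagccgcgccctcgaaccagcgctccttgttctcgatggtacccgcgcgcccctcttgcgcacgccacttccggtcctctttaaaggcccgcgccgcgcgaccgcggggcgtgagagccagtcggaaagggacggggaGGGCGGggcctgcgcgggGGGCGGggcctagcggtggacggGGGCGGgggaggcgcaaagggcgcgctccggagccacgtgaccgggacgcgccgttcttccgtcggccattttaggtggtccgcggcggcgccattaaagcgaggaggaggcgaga
Mbnl2 (chr14:120275419-120275718, plus strand): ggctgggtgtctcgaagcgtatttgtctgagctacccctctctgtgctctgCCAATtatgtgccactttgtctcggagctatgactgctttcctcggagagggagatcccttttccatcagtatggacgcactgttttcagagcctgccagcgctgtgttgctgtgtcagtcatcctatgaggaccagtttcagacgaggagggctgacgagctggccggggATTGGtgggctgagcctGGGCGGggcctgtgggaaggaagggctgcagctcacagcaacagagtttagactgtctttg
Mbnl3 (chrX:51205941-51206240, minus strand): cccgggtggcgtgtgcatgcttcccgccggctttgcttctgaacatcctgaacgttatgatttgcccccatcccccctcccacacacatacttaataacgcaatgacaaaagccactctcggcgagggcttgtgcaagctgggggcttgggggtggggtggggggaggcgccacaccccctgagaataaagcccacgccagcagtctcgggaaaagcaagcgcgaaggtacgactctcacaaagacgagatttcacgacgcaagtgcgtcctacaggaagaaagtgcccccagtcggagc

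These windows had no shared layout within either direction. Hnrnpd held 3 GC boxes and 45 CpG dinucleotides, Srsf12 held 1 GC box and 26 CpG, and Rbfox3 held 1 CCAAT and 4 CpG. Mbnl2 held 1 GC box, 2 CCAAT and 10 CpG, and Mbnl3 held neither motif and 19 CpG. Over the 122 promoters of the 87 member genes in the table, 53.3% held GGGCGG and 39.3% held CCAAT, beside 35.7% and 37.4% of all 32851 promoters, and the median CpG number was 21 in member promoters and 7 in all. The letters TATAAA stood in 9.0% of member promoters and 13.6% of all. A match is only a string of letters in this window, and several promoters of 1 gene overlap.

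Between 13.5 and 15.5 dpc, a similar exchange was called within the embryonic brain. At 15.5 dpc, 7 probe sets of 6 genes were higher (5.38%, beside 3.52% of all tested probe sets) and 9 probe sets of 5 genes were lower (6.92%, beside 3.07%). All 7 rises and 5 of the falls belonged to the neural regulators. These calls were fragile, since leaving out any 1 of the 4 embryonic arrays left 0 members called, except without the maternal-7 array at 13.5 dpc, where 6 were called.

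The rising members were Celf2 (1439777_at, 1.91 ± 0.40, adjusted p = 0.0412), Rbfox1 (1438217_at, 1.54 ± 0.23, adjusted p = 0.0223, and 1455358_at, 1.49 ± 0.19, adjusted p = 0.0151) and Celf5 (1.23 ± 0.24, adjusted p = 0.0339). Rbfox3 (1436450_at, 1.06 ± 0.23, adjusted p = 0.0482), Elavl1 (1452858_at, 0.93 ± 0.19, adjusted p = 0.0394) and Celf6 (0.85 ± 0.19, adjusted p = 0.047) followed. Celf6 was the most even of them, with 978 in paternal-7 and 1023 in maternal-7 brain at 15.5 dpc, against 526 in paternal-7 and 534 in maternal-7 brain at 13.5 dpc. Celf2 was the most uneven, with 1172 in paternal-7 and 1249 in maternal-7 brain at 15.5 dpc, against 140 in paternal-7 and 516 in maternal-7 brain at 13.5 dpc. The other tested probe set of Celf2 had -0.12 and the lowest of Elavl1 had 0.01, neither of them called.

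Mbnl2 and Mbnl3 made up the falling neural regulators. Mbnl3 (1434678_at) had the largest fall of the contrast (-2.03 ± 0.23, adjusted p = 0.0115), and its probe set 1442549_at fell (-1.21 ± 0.20, adjusted p = 0.0266). Mbnl2 (1433754_at) had 762 in paternal-7 and 865 in maternal-7 brain at 15.5 dpc, against 2356 in paternal-7 and 2692 in maternal-7 brain at 13.5 dpc, a fall of the same order (-1.57 ± 0.18, adjusted p = 0.0113). Its neonatal signals of 905 to 1044 lay near those at 15.5 dpc. Probe sets 1455827_at (-1.35 ± 0.25, adjusted p = 0.0325) and 1436858_at (-1.13 ± 0.25, adjusted p = 0.0487) of Mbnl2 fell as well, and 2 others had -1.32 and -0.24 without a call.

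Outside the neural family, Rbms3, which binds AU-rich messages, fell with 2 probe sets (1452761_a_at, -1.23 ± 0.24, adjusted p = 0.036, and 1452762_at, -0.91 ± 0.18, adjusted p = 0.0353). Its relative Rbms2 had 1769 in paternal-7 and 1982 in maternal-7 brain at 15.5 dpc, against 3865 in paternal-7 and 4214 in maternal-7 brain at 13.5 dpc (-1.08 ± 0.20, adjusted p = 0.0328). Cnot11 had 1279 in paternal-7 and 1464 in maternal-7 brain at 15.5 dpc, against 2437 in paternal-7 and 3056 in maternal-7 brain at 13.5 dpc (1428533_at, -0.97 ± 0.18, adjusted p = 0.0318). It was the 1 called of 3 tested probe sets of Cnot11, the highest of which had -0.31. The groups did not overlap for any of the 16 called members. With 2 arrays a side such separation was common and adds little to the calls. Of all 130 tested members, called or not, 22 lay apart above (16.9%) and 45 below (34.6%). Map2 and Syt1 were also called higher at 15.5 dpc (1.20 ± 0.26 and 1.12 ± 0.21, adjusted p = 0.047 and 0.0339), and their part in these results was not tested.

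Calls of the same direction in both contrasts were made for 7 probe sets higher (5.38%, beside 2.74% of all tested) and 5 lower (3.85%, beside 1.92%). These contrasts share the embryonic arrays and are not independent. The higher ones were those of Rbfox1 (1438217_at and 1455358_at), Rbfox3, Celf2, Celf5, Celf6 and Elavl1, and the lower ones those of Mbnl3 (both probe sets), Mbnl2 (1433754_at), Rbms2 and Cnot11. Neonatal signals of this Mbnl2 probe set (905 to 1044) lay above those at 15.5 dpc (762 and 865). Those of Rbms2 (1242 to 1917) overlapped its signals at 15.5 dpc (1769 and 1982). Celf2 (1439777_at) was lower in cerebellum (751 and 876) than at 15.5 dpc (1172 and 1249). Hnrnpd, Srsf12 and Cpeb2 were called between stages but not between the embryonic ages, where their differences were 0.44 ± 0.19 (1457568_at), 0.58 ± 0.25 and 0.57 ± 0.21 (1458518_at).

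Between neonatal cortex and cerebellum, no member was called by limma, beside 0.197% of all tested probe sets called higher in cortex and 0.129% called lower. At an unadjusted p below 0.05, 6 members (4.62%) were higher in cortex, beside 4.03% of all tested probe sets, and 2 (1.54%) were lower, beside 3.62%. Celf2 had by far the largest difference, with 3606 in paternal-7 and 3267 in maternal-7 cortex, against 751 in paternal-7 and 876 in maternal-7 cerebellum (1439777_at, 2.0 ± 0.40, adjusted p = 0.166). The cortical signals were all above the cerebellar ones, and this probe set was called with a pseudocount 4 times as large and with a prior variance that followed the signal. The other tested probe set of Celf2 had 0.04 and was not called. Cnot11 (1452824_at, 0.79 ± 0.25, adjusted p = 0.443) and Rbm24 (1454752_at, 0.66 ± 0.21, adjusted p = 0.485), a regulator of muscle splicing, had smaller differences and were named after their values were seen. The lowest of the 3 tested probe sets of Cnot11 had 0.08, and the lowest of the 4 of Rbm24 had 0.12. The tissue contrast rests on 1 array per duplication in each tissue, and a p that misses the threshold does not show equal levels.

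The duplications were compared within each context, which sets aside all differences between tissues and ages. No member was called by limma in any of the comparisons, over all 4 pairs, over the neonatal or embryonic pairs apart, or in the difference between these. Of all tested probe sets, 0.00756% were called higher in paternal-7 mice over the 4 pairs and 0% lower, and in the other 3 comparisons 0% were called in either direction. The smallest adjusted p of a member over the 4 pairs was 0.532. On simulated arrays, known changes of 1 log2 unit were recovered at 44% over the 4 pairs. In the neonatal or embryonic pairs apart, 0% of them were recovered. The lack of calls therefore does not show equal levels. At an unadjusted p below 0.05, 3 members (2.31%) were higher in paternal-7 mice, beside 4.14% of all tested probe sets, and 10 (7.69%) were lower, beside 4.53%.

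More members were lower than higher in paternal-7 mice, though by little. The difference was above 0 for 51 of 130 members (39.2%), beside 51.9% of all tested probe sets, with a median of -0.02 beside 0.01. In all 4 pairs, 21 members were lower (16.2%, beside 9.08% of all) and 7 higher (5.38%, beside 9.67%). In 4 members, all paternal-7 arrays lay below all maternal-7 arrays (3.08%, beside 0.779%), while in none did they lie above (beside 0.953%). By family, the snRNP and tri-snRNP proteins had 2 of 11 probe sets above 0 and a median of -0.17, the U2 core 1 of 6 and -0.06, and the neural regulators 12 of 23 and 0.03.

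**Figure D3:**
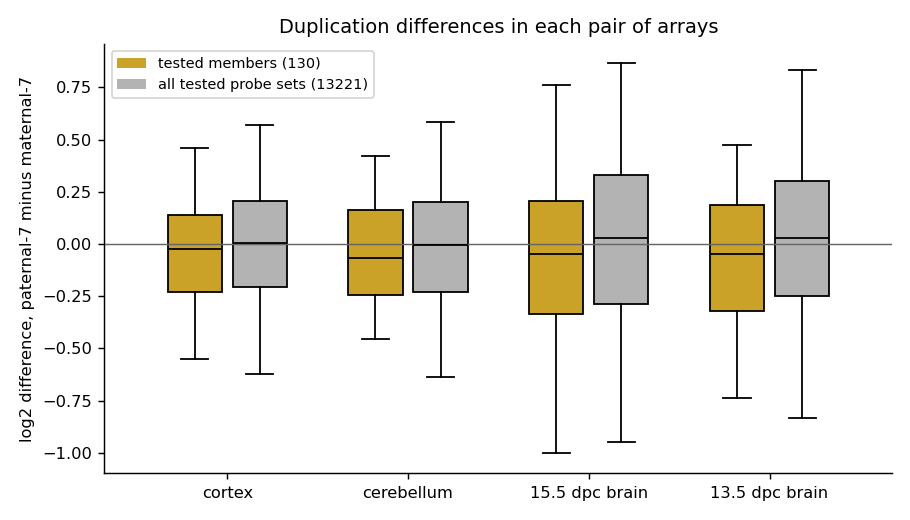
Log2 difference of paternal-7 minus maternal-7 in each pair of arrays, for the 130 tested members (gold) and all 13221 tested probe sets (grey). Boxes span the quartiles with the median as a line, and whiskers the 5th to 95th percentiles. Member medians lie between -0.06 and -0.02, slightly below those of all probe sets, and both spreads are wider in the embryonic pairs.

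The 4 members with separated arrays were Hnrnpdl, Sf3b1, Ddx46 and Rbm27. Hnrnpdl, a close relative of Hnrnpd, had 3187 in paternal-7 and 4698 in maternal-7 cortex, 3077 in paternal-7 and 4245 in maternal-7 cerebellum, 2419 in paternal-7 and 4285 in maternal-7 brain at 15.5 dpc, and 2725 in paternal-7 and 3755 in maternal-7 brain at 13.5 dpc. The highest paternal-7 array was below the lowest maternal-7 one, and the difference was -0.57 ± 0.13 (adjusted p = 0.532). It was -0.50 ± 0.18 in the neonatal and -0.63 ± 0.18 in the embryonic pairs, and the difference between these was not called (0.13).

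Sf3b1, the largest subunit of SF3b and the contact to the branch point, had 1237 in paternal-7 and 2201 in maternal-7 cortex, 1468 in paternal-7 and 1786 in maternal-7 cerebellum, 792 in paternal-7 and 1849 in maternal-7 brain at 15.5 dpc, and 1475 in paternal-7 and 1985 in maternal-7 brain at 13.5 dpc. The difference was -0.66 ± 0.18 (adjusted p = 0.535), with -0.54 ± 0.26 in neonatal and -0.79 ± 0.26 in embryonic pairs. Both Hnrnpdl and Sf3b1 were read by 1 probe set of the s_at type, which may match related transcripts. Sf3b5 (1437972_s_at) and the probe set of Ddx31 called between stages (1438962_s_at) were of the same type. Ddx39b (1447779_x_at), Ddx1 (1440816_x_at) and Ddx6 (1447789_x_at) were read by probe sets of the x_at type, for which matches to other transcripts were not examined. Ddx46, a helicase of early spliceosome assembly, had -0.37 ± 0.14 (1457744_at, adjusted p = 0.562), and Rbm27, a zinc finger protein of nuclear RNA decay, had -0.35 ± 0.13 (1456058_at, adjusted p = 0.562). The other tested probe set of Ddx46 had -0.13 ± 0.15 (1455103_at) and that of Rbm27 had 0.09 ± 0.14 (1458748_at). These 2 genes were chosen after their values were seen.

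Among the other members lower in all 4 pairs, Tnrc6a, the GW182 scaffold of microRNA silencing, had the largest difference (-0.70 ± 0.22, adjusted p = 0.539). Its signals were dim, with 175 in paternal-7 and 213 in maternal-7 cortex, 131 in paternal-7 and 251 in maternal-7 cerebellum, 51.6 in paternal-7 and 248 in maternal-7 brain at 15.5 dpc, and 301 in paternal-7 and 414 in maternal-7 brain at 13.5 dpc. Snrnp70, the U1 70K protein that begins recognition of the 5′ splice site, had 888 to 1206 on paternal-7 and 1189 to 1496 on maternal-7 arrays (1429009_at, -0.39 ± 0.13, adjusted p = 0.546). Rbm45 (-0.51 ± 0.26), Ddx1 (-0.46 ± 0.21), Rbm20 (-0.43 ± 0.21) and Rbm25 (-0.42 ± 0.15) had adjusted p-values between 0.562 and 0.596.

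Of the 7 members higher in all 4 pairs, the largest difference was that of Cnot2, a scaffold of the CCR4-NOT complex, at 0.48 ± 0.19 (adjusted p = 0.569), from signals of 150 to 346 on paternal-7 and 117 to 220 on maternal-7 arrays, with all maternal-7 signals below the array medians. Hnrnpr, which binds neuronal messages (1429232_at, 0.35 ± 0.13, adjusted p = 0.562), Ddx6, a helicase of processing bodies (0.26 ± 0.13, adjusted p = 0.589), and Hnrnpul2 (0.23 ± 0.14, adjusted p = 0.635) followed. Dhx37, Dhx33 and Rbm15b had differences of 0.11 to 0.16. In these 7 the paternal-7 and maternal-7 arrays overlapped.

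**Figure D4:**
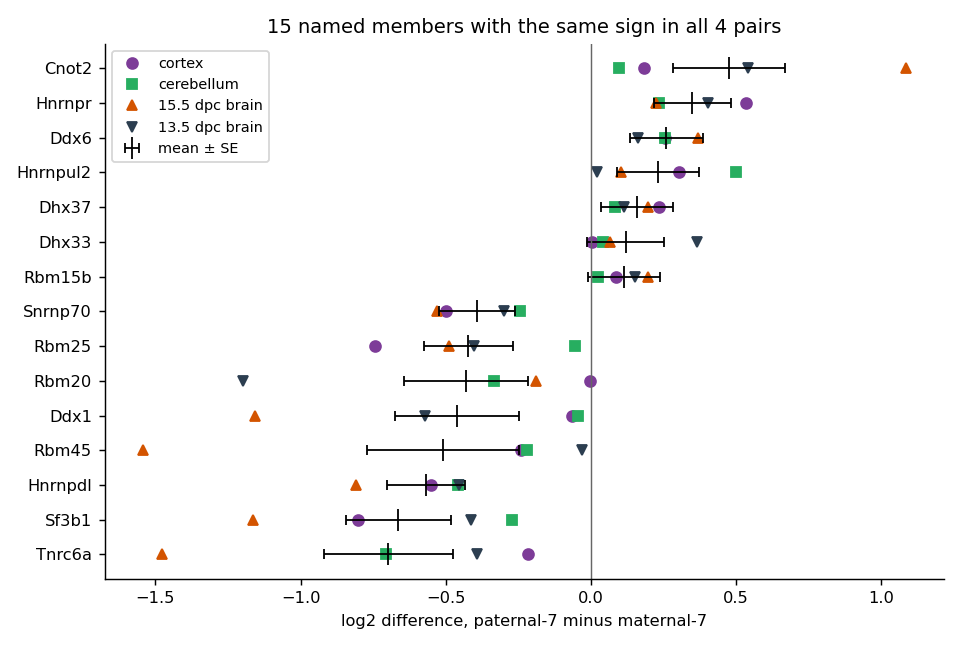
Log2 difference of paternal-7 minus maternal-7 in each of the 4 pairs for 15 named members with the same sign in all pairs. Symbols stand for contexts, and the black mark and bar for the fitted mean and its standard error. Hnrnpdl lies between -0.81 and -0.45 in the 4 pairs, while Rbm45 at -1.54 and Tnrc6a at -1.48 lie farthest from 0 in the pair of 15.5 dpc.

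The neonatal pairs taken apart showed small differences. The median of the members was -0.06 (all tested probe sets 0.00), with 48 of 130 above 0 (36.9%, beside 49.4%). On the log2(signal + 58.5) scale, differences of 2-fold or more were rare, with 1 member higher and 1 lower in paternal-7 cortex (0.769% each, beside 1.13% and 1.57% of all), and 0 higher and 1 lower in paternal-7 cerebellum (0.769% lower, beside 1.64%). Ddx39b, also called UAP56, which loads messages for export, had the largest positive one, with 389 in paternal-7 and 152 in maternal-7 cortex and 269 in paternal-7 and 127 in maternal-7 cerebellum (0.96 ± 0.19, adjusted p = 0.723). The maternal-7 signals lay below the array medians, so that the level was at least 1.38-fold higher in paternal-7 mice, and in the embryonic pairs its signals averaged 222 in paternal-7 brain, below the array medians, and 243 in maternal-7 brain.

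Hnrnpr showed opposite signs by stage in its second probe set. Probe set 1438807_at had 1109 in paternal-7 and 679 in maternal-7 cortex and 930 in paternal-7 and 522 in maternal-7 cerebellum (0.72 ± 0.31), and in the embryonic pairs 676 in paternal-7 and 756 in maternal-7 brain at 15.5 dpc and 349 in paternal-7 and 1001 in maternal-7 brain at 13.5 dpc (-0.76 ± 0.31). The difference between the stages was 1.48 ± 0.44 and was not called (adjusted p = 0.502), and the other probe set of Hnrnpr had 0.38 in neonatal and 0.31 in embryonic pairs. Other neonatal pair differences were those of Snrnp35 (0.47 ± 0.23), Rbm12b2 (0.42 ± 0.23), Hnrnpul2 (0.40 ± 0.17), Dhx38 and Tnrc6a, with adjusted p-values between 0.874 and 0.933. The paternal-7 signals of Dhx38 and Tnrc6a lay below the array medians, with a bound of at least 1.14-fold lower for Dhx38 and one barely above 1 for Tnrc6a. Mbnl3 (1434678_at), lower in both paternal-7 neonatal arrays, was below the medians in both duplications and has no fold.

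In the embryonic pairs the spread was wider. The standard deviation of the member differences was 0.53 at 15.5 dpc and 0.46 at 13.5 dpc, and in the neonatal pairs 0.34 in cortex and 0.31 in cerebellum. On the same scale, 3 members were at least 2-fold higher at 15.5 dpc (2.31%, beside 3.48%) and 8 lower (6.15%, beside 4.44%) in paternal-7 brain, and at 13.5 dpc 2 were higher (1.54%, beside 3.28%) and 5 lower (3.85%, beside 3.38%). The median over both embryonic pairs was -0.06, beside 0.03 for all tested probe sets. Over the same pairs, the neuronal markers Map2 and Syt1 had a median of -0.31 and the 3 tested progenitor markers one of -0.76, and none of them was called. The 2 tested astrocyte markers had a median of -0.03, and other lists lay between -0.80 (1 oligodendrocyte gene) and 0.28 (1 endothelial gene), also without a call. The part of cell makeup was not tested.

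Rbm33 had the largest embryonic difference of the set. Its probe set 1453566_at had 1026 in paternal-7 and 302 in maternal-7 brain at 15.5 dpc and 985 in paternal-7 and 193 in maternal-7 brain at 13.5 dpc, a difference of 1.82 ± 0.29 (adjusted p = 0.205). The neonatal signals were 304 in paternal-7 and 130 in maternal-7 cortex and 145 in paternal-7 and 152 in maternal-7 cerebellum, so that both paternal-7 embryonic arrays stood apart from the other 6. The other tested probe sets of Rbm33 had -0.06 ± 0.22 (1435391_at) and -0.06 ± 0.18 (1455430_at) in the embryonic pairs, and the difference between stages of 1453566_at was -1.37 ± 0.41 (adjusted p = 0.5).

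Of the 26 helicase probe sets, 12 lay above 0 in the embryonic pairs, with a median of -0.05. Ddx23, the U5 helicase needed to activate the spliceosome, lies on chromosome 15 and had 341 in paternal-7 and 661 in maternal-7 brain at 15.5 dpc and 295 in paternal-7 and 666 in maternal-7 brain at 13.5 dpc (1439952_at, -0.94 ± 0.18, adjusted p = 0.222). Its neonatal signals were all between 261 and 327, and its second probe set had 0.05 ± 0.33 in the embryonic pairs. Ddx1, of tRNA ligation, had 1598 in paternal-7 and 3640 in maternal-7 brain at 15.5 dpc and 2128 in paternal-7 and 3193 in maternal-7 brain at 13.5 dpc (-0.87 ± 0.21, adjusted p = 0.243), against -0.05 ± 0.21 in neonatal pairs.

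Ddx50, a nucleolar helicase, had paternal-7 signals of 159 and 142 and maternal-7 signals of 585 and 409 at 15.5 and 13.5 dpc, at least 1.74-fold lower in paternal-7 brain (-1.39 ± 0.45, adjusted p = 0.288). It was also low in paternal-7 cortex, with 103 against 403 in maternal-7 cortex, but not in cerebellum, with 429 in paternal-7 against 304 in maternal-7 mice. Rbms3 (1436937_at, -1.24 ± 0.25), Tnrc6a (-0.93 ± 0.30), Cnot2 (0.81 ± 0.20, at least 1.27-fold higher), Mbnl2 (1457477_at, 0.89 ± 0.27), Rbm46os (0.78 ± 0.19) and Celf3 (0.60 ± 0.22) had adjusted p-values between 0.231 and 0.312. The test of the difference between stages called 0 of 130 members, with 12 at an unadjusted p below 0.05, 6 in each direction (4.62% each, beside 4.24% of all tested probe sets above 0 and 4.9% below). On simulated arrays this test recovered 0% of known changes of 1 log2 unit and 0% of those of 2. Its lack of calls therefore does not show equal effects at both stages.

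**Figure D5:**
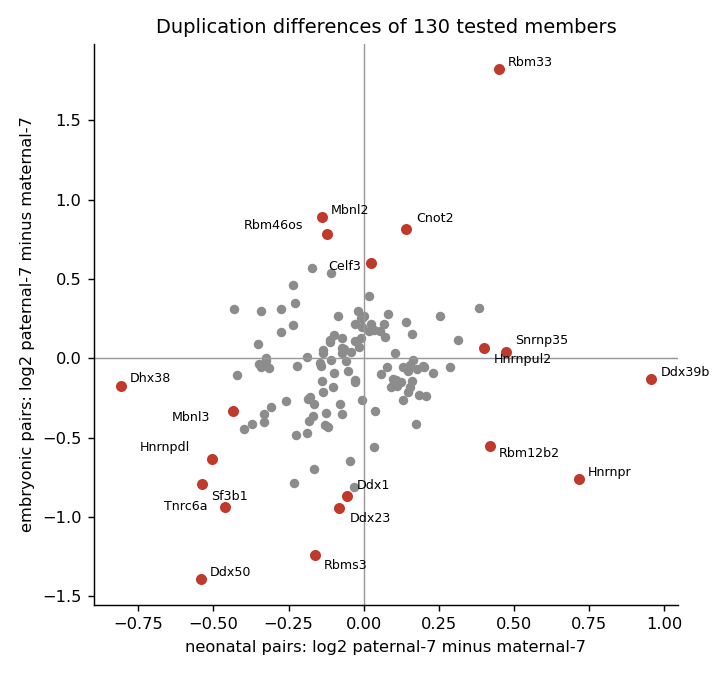
Log2 difference of paternal-7 minus maternal-7 over the neonatal pairs (x axis) and the embryonic pairs (y axis) for the 130 tested members, 1 point each, with the named members in red. Hnrnpdl, Sf3b1 and Tnrc6a lie below 0 on both axes, Rbm33 stands alone at 1.82 on the y axis, and Hnrnpr (1438807_at) lies at 0.72 on the x axis and -0.76 on the y axis.

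Members on the duplicated chromosomes were few. On chromosome 7, 7 probe sets of 6 genes were tested (Tnrc6a, Snrnp70, Rbm42, Cnot3, Nova2 and Dhx34), and 1 had a difference above 0, with a range of -0.70 to 0.14 and a median of -0.23. In the neonatal pairs 0 of the 7 were above 0 and in the embryonic pairs 3. On chromosome 15, 4 probe sets of Ddx23 and Tnrc6b had differences from -0.51 to 0.18, with 1 above 0. Whether each gene lies inside the proximal duplicated stretch was not established, since the labels give no breakpoints, and none of these members was called.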

How the data were processed

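Deposited values were linear signal intensities of 1 Affymetrix 430B array per sample, made with MAS5 per the submitters' processing notes, with the version not given in the sources used here. MAS5 summarises the probes of each probe set array by array, so low intensities are noisy. The 64 control probe sets were left out, no normalization was added, and the mean signal after trimming was close to 498 on every array. Depth has no meaning for arrays, whose number limits the precision. Intensities were transformed as log2(signal + 58.5), the pseudocount being the median of the 20th percentiles, which understates changes of dim probe sets.

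Additive models of context and duplication (3 residual degrees of freedom), and models with 1 duplication effect for each stage (2 residual degrees of freedom), were fitted over all 13221 tested probe sets with limma 3.58.1 in R 4.3.3, with Benjamini-Hochberg adjustment, after a check on simulated data. Errors after ± are moderated standard errors. The p-values rest on the scatter among these 8 arrays alone. Where 1 side lay below the array median throughout, named differences have a bound against that median, without pseudocount, if it exceeds 1.

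Gene names came from the platform annotation, and all 168 members matched a RefSeq gene with an unchanged symbol. 5 probe sets with several symbols were left out. Levels of different probe sets were compared only to pick the brightest of a gene. This was done for the marker and regulator lists and for the alternative with 1 probe set per gene. The signals of the neuronal marker list are sums over such probe sets. The members, gene lists and tests were chosen with earlier results of these data known. Named were the called neural regulators, up to 12 called members per direction in each contrast between contexts with separated arrays, and for the duplications the 8 largest differences per direction with the same sign in all pairs (5 in neonatal and in embryonic pairs apart), and Sf3b1. Alternatives were quantile normalization, median centring, other pseudocounts, other filters, 1 probe set per gene, a trended prior variance and leaving out arrays or pairs.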

Additional observations from a re-analysis of the deposited data

How the results depend on the processing

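None of 78 values named by rule changed its sign under the alternatives run for it. The choice of values largely set this outcome. The 35 duplication values were picked for 1 sign in every pair, so leaving out a pair could not reverse them. The 43 others were picked because they were called. Of 1114 recomputed values, 971 kept their side of the threshold and 143 lost a call, most of them on leaving out 1 embryonic array. The duplication values had no call to lose, so all the losses were among the 43 called values. Of these 43, 18 kept their call under every alternative run for them. Of 15 further values, chosen after they were seen, none changed sign in 201 recomputations, 22 lost a call and 2 gained one (Celf2 between tissues). The duplications called 0 members under every alternative, and median differences of the members moved most often. The cause of the movements was not tested.

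The number of members called between 15.5 and 13.5 dpc (16) became 6 with signals floored at 1 and no pseudocount, 3 with no filter and 10 with the brightest probe set per gene, and lay between 0 and 6 on leaving out 1 array. Between neonatal and embryonic tissue (32) it became 20 with 1 probe set per gene and lay between 20 and 31 on leaving out 1 array. Between cortex and cerebellum (0) it became 1 with 4 times the pseudocount and 1 with a trended prior variance.

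Under quantile normalization, member medians were -0.0445 over the 4 duplication pairs, -0.0362 in the embryonic pairs, 0.0565 for cortex minus cerebellum and -0.109 for neonatal minus embryonic, and under median centring -0.0606, -0.155, 0.0556 and 0.0237. With 4 times the pseudocount they were -0.0483 in the embryonic pairs, 0.0492 for the tissues, -0.107 for the embryonic ages and -0.124 for the stages. With the floor they were -0.0619, 0.0631 and -0.16 for embryonic pairs, tissues and stages. Without a filter the stage median was -0.158, and with a filter on the mean -0.147, with 0.054 for the tissues. With 1 probe set per gene the medians were -0.0473 (4 pairs), -0.0866 (embryonic pairs), 0.0818 (tissues), -0.0841 (embryonic ages) and -0.14 (stages). On leaving out arrays or pairs they lay between -0.0689 and -0.0343 (4 pairs), -0.0649 and -0.0223 (neonatal pairs), -0.0564 and -0.0492 (embryonic pairs), 0.031 and 0.0725 (tissues), -0.165 and -0.102 (embryonic ages) and -0.171 and -0.14 (stages).

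The duplications are compared within contexts, and no fit with a replicate number as a further block was possible because each group holds 1 array. With 1 array per duplication and context, animal, dissection and array cannot be told apart, and dim signals have only a bound.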

Other observations

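RNA regulators outside the named families were also read from the arrays. Of 77 listed genes, 41 were on the array and 35 were tested, each through its probe set with the highest mean signal. Other probe sets of these genes were not read, while the shares of all tested probe sets can count a gene several times. In neonatal tissue, 7 of the 35 rose and 3 fell, beside 14.3% and 16.4% of all tested probe sets. The rises included Srpk2, a kinase of SR proteins (1.19 ± 0.18, adjusted p = 0.00452), Srrm4, which promotes neural microexons (0.91 ± 0.19, adjusted p = 0.0128), and Pcbp2, a poly(C) binding protein (0.82 ± 0.15, adjusted p = 0.00909), and Son, Syncrip, U2surp and Smg1 rose by 0.54 to 0.65. The falls were those of Tra2a, an SR-like splicing activator (-1.91 ± 0.15, adjusted p = 0.000842), Igf2bp1, a fetal messenger RNA binding protein (-1.81 ± 0.17, adjusted p = 0.00117), and its relative Igf2bp3 (-1.14 ± 0.13, adjusted p = 0.00186). Between the embryonic ages, none rose, and Tra2a (-1.14 ± 0.22, adjusted p = 0.0339) and Igf2bp1 (-1.35 ± 0.24, adjusted p = 0.0301) fell at 15.5 dpc, beside 3.52% of all tested probe sets called higher and 3.07% lower. None of the 35 was called between the duplications by limma.

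Probe sets of 1 gene often gave different answers. Of 32 member genes with several tested probe sets, 12 had a call between stages. In 5 of them all tested probe sets were called the same way, in 6 some were called and others were not, and in 1, Celf2, they were called both ways.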
